A study of Mus musculus with 8 samples.

Results

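The mouse mitochondrial genome is a small circular DNA that encodes the RNAs of the mitochondrial ribosome, a set of tRNAs and the core subunits of respiratory complexes I, III, IV and V. Both of its strands are transcribed as long precursors, which are cut at the tRNAs, and most genes are read from the same strand. Pieces of mitochondrial DNA are also found in nuclear chromosomes, where they are called nuclear mitochondrial copies, and reads from mitochondrial RNA can match such a copy. In the heart, a tissue rich in mitochondria, these RNAs are usually abundant.

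The RNA-seq data described here came from hearts of male Hsd:ICR(CD-1) mice, 4 at postnatal day 1 (P1) and 4 at postnatal day 7 (P7), each heart sequenced as its own library. Hsd:ICR(CD-1) is an outbred stock, no treatment or allele is named in the labels, and the atrial appendages were cut away before RNA was prepared and depleted of ribosomal RNA. The deposited value is FPKM, a fragment count corrected for locus length and library size, for 80155 loci. The members are 12 of these loci: all 8 on the mitochondrial chromosome, which hold all 37 mitochondrial gene symbols, and the 4 loci without a symbol that lie in a window of chromosome 1 (GRCm38) around a nuclear copy of mitochondrial DNA. The rule uses position and symbol, and was set with earlier results of these data known.

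The nuclear copy reads in the same order as the mitochondrial genome. GENCODE M21 annotates 7 unprocessed pseudogenes in it, all on the minus strand, from chr1:24611535-24616197. Their sequences matched the mitochondrial genes without gaps from MT:6381-11042, that is from within mt-Co1 to within mt-Nd4, except that the copy held 1 extra base between the matches to mt-Nd3 and mt-Nd4l. Over 4149 compared bases 7 differed, which gives an identity of 99.8%. Of the differences, 6 lay at the outer edge of Gm29216, the copy of part of mt-Co1, and the remaining 1 near the start of Gm28438, the copy of mt-Nd3. Written as mitochondrial base, mitochondrial position and base of the copy, they were T6383A, C6384T, A6386G, A6387G, C6389A, A6393T and T9461C.

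The bases that set the copy apart are shown first, from GENCODE M21 transcripts on GRCm38, because in the reference, over the bases compared, they are the only letters in which the copy and the mitochondrial genes differ. Capitals mark the differing bases, and the copy is read on its minus strand. The mt-Co1 stretch is MT:6381-6440 on the plus strand and chr1:24616138-24616197 in the copy, and the mt-Nd3 stretch is MT:9459-9518 and chr1:24613060-24613119.
mt-Co1 stretch, mitochondrial: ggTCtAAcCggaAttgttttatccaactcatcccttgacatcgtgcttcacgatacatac
mt-Co1 stretch, copy: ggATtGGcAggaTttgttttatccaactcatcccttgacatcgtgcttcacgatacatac
mt-Nd3 stretch, mitochondrial: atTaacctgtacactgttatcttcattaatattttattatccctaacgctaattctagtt
mt-Nd3 stretch, copy: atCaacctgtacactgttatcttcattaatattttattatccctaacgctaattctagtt

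The 4 unannotated loci lay within the span of the copy, 1 of them wholly inside a pseudogene. XLOC_003026 is 102 bases long (chr1:24615268-24615369), lies within Gm28661 and corresponds to MT:7209-7310 inside mt-Co2, a catalytic subunit of complex IV. All 102 bases were identical in both places, so the sequence is shown once, read in the direction of mt-Co2.
XLOC_003026: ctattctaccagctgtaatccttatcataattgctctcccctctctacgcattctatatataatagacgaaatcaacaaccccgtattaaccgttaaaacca
XLOC_003025 is 401 bases long (chr1:24613881-24614281) and spans the end of the mt-Atp6 copy, an ATP synthase subunit, and the start of the mt-Co3 copy, another catalytic core subunit of complex IV. It corresponds to MT:8297-8697, with 0 differences in 399 compared bases. Its first 80 bases (MT:8297-8376) show how completely the sequences coincide, since the copy (chr1:24614202-24614281) gives the same letters.
XLOC_003025, first 80 bases: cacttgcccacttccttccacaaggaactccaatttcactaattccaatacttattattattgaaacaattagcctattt
XLOC_003024 and XLOC_000359 share 1 interval of 450 bases (chr1:24612996-24613445), which corresponds to MT:9133-9582. It crosses the bases between Gm28437 and Gm28438, which no pseudogene covers and which were not compared. By position it holds the end of the mt-Co3 copy, the place of the glycine tRNA mt-Tg and the start of the mt-Nd3 copy. In this interval 1 base of 381 compared differed, T9461C. The stretch below is its mt-Co3 end, MT:9133-9212, identical to chr1:24613366-24613445.
XLOC_003024, first 80 bases: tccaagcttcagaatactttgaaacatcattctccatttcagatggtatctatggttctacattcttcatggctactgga

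The files do not state a strand. On chromosome 1 the locus numbers run through 2 blocks. Of the annotated loci with 1 GENCODE strand, 699 of the first block were on the plus strand and 35 on the minus strand, and 66 of the second block were on the plus strand and 705 on the minus strand. XLOC_000359 falls in the first block and the other members of the copy in the second. XLOC_000359 is therefore called the plus-strand locus here and XLOC_003024 the minus-strand locus, which is the direction of the pseudogenes and of mt-Co3, and the strand remains inferred.

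**Figure D1:**
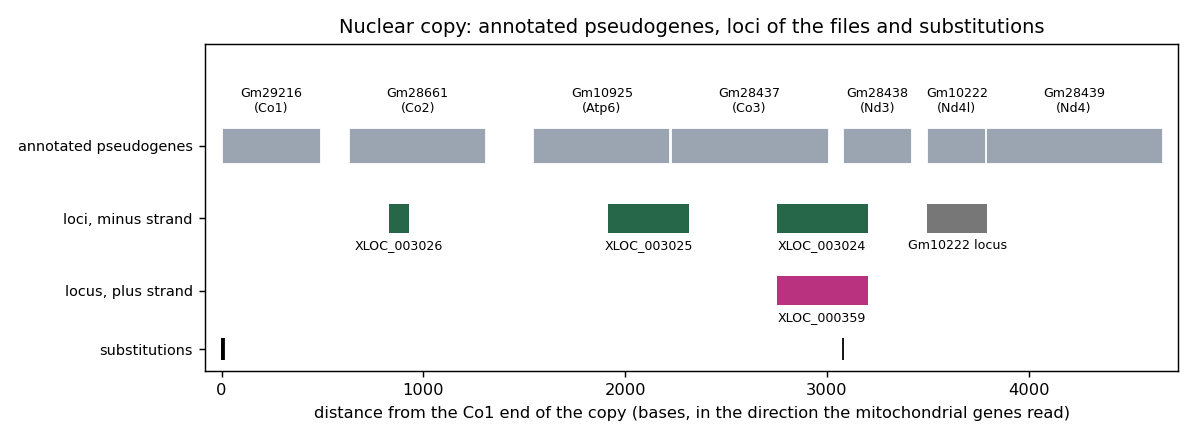
Map of the nuclear copy by distance in bases from its mt-Co1 end, with annotated pseudogenes (grey), minus-strand loci of the files (green), the plus-strand locus (magenta) and substitutions against the mitochondrial sequence (ticks). The loci lie in the part of the copy with 1 substitution, and the other 6 lie together at its edge.

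Of the 12 members, 7 reached an FPKM of 1 in some heart and were tested. The other 5, all mitochondrial, were listed at 0 in all 8 hearts. They hold mt-Nd3, a complex I subunit, and the tRNAs mt-Tr, mt-Tq, mt-Ts1 and mt-Tp. Stages were compared with limma on log2(FPKM + 1) over the 43172 loci that had 1 FPKM or more in some heart. A locus was called where p, adjusted by Benjamini-Hochberg, was under 0.05 and mean FPKM differed 1.5 times or more. Over all tested loci 3.82% were called. Of the 7 tested members 1 was called, XLOC_003024, which was higher in P7. Among unannotated loci 0.397% were called higher in P7, and among annotated loci 7.74%.

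Most mitochondrial genes fell into a single locus, so their separate levels could not be read. XLOC_075458 holds 26 symbols of the plus strand: both rRNAs (mt-Rnr1 and mt-Rnr2), 13 tRNAs and 11 of the 13 protein-coding genes, among them mt-Co1, mt-Co2, mt-Co3, mt-Cytb, mt-Atp6, mt-Atp8 and complex I subunits such as mt-Nd1 and mt-Nd5. Its FPKM was 965.2, 932.4, 1217 and 431.8 in P1 replicates 1 to 4 and 853.8, 1239, 1697 and 1009 in P7 replicates 1 to 4. P1 replicate 4 was the lowest heart and P7 replicate 3 the highest, and the stages overlapped. The P1 hearts averaged 887 ± 329 and the P7 hearts 1200 ± 367 (SD, n = 4 each). The log2 fold change, P7 minus P1, was 0.48 with a standard error of 0.33 and a 95% interval from -0.23 to 1.20, and the limma adjusted p was 0.43. By FPKM this locus ranked 64 to 169 among annotated loci at P1 and 45 to 99 at P7.

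The minus-strand loci of the mitochondrial chromosome had a far lower FPKM than XLOC_075458 in every heart. XLOC_075464 holds mt-Nd6, the complex I subunit encoded on the opposite strand, and the glutamate tRNA mt-Te. Its FPKM was 12.4, 14.1, 10.1 and 4.04 in P1 and 8.96, 10.5, 8.69 and 7.78 in P7. The log2 fold change was -0.05 with a standard error of 0.30 (limma adjusted p = 0.93), and the stages overlapped, with P1 replicate 4 again the lowest heart. XLOC_075462 holds the tRNAs mt-Ta, mt-Tn, mt-Tc and mt-Ty, which are adjacent in the genome and 66 to 71 bases long. Its FPKM is that of the locus and is not read as a level of these tRNAs themselves. It was 12.7, 10.7, 15.7 and 13.5 in P1 and 6.24, 9.36, 9.77 and 12.5 in P7. The P7 hearts lay lower on average but P7 replicate 4 was above P1 replicate 2. The log2 fold change was -0.46 with a standard error of 0.22 and a 95% interval from -0.93 to 0.01 (limma adjusted p = 0.28).

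Levels within a heart were also set against each other. Per 100 FPKM of XLOC_075458, the locus of mt-Nd6 and mt-Te held 0.827 to 1.51 FPKM in P1 and 0.512 to 1.05 in P7. XLOC_075462, the locus of the 4 minus-strand tRNAs, held 1.31, 1.15, 1.29 and 3.14 FPKM in P1 replicates 1 to 4. In P7 replicates 1 to 4 it held 0.731, 0.756, 0.576 and 1.24. The stages overlapped in both ratios, and the highest ratio of XLOC_075462 belonged to P1 replicate 4, where the plus-strand locus was lowest.

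**Figure D2:**
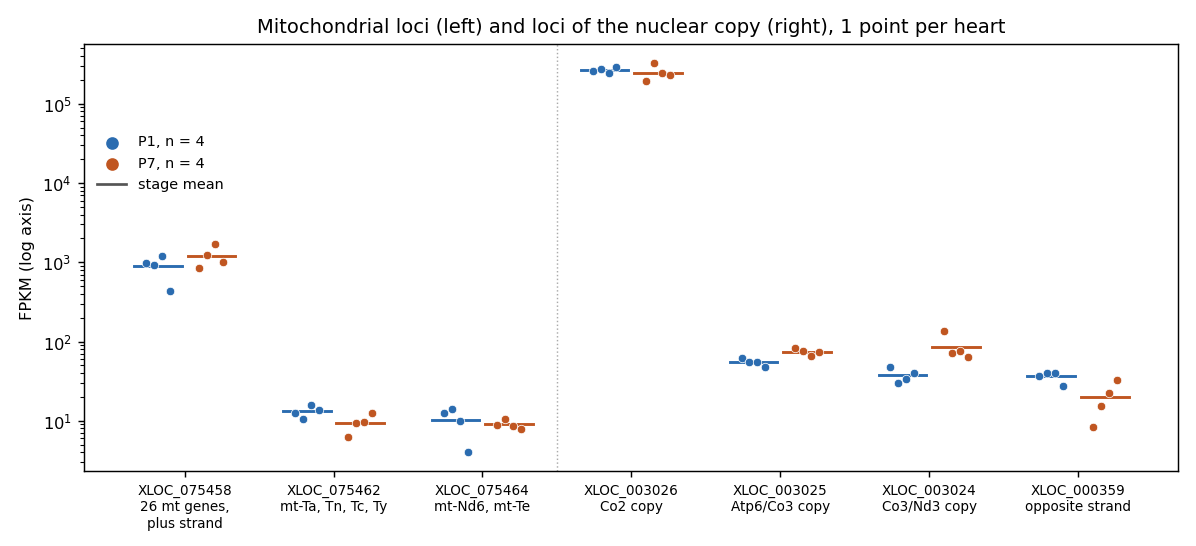
FPKM (log axis) of the 7 tested members in each heart, 1 point per heart, P1 in blue, P7 in orange, with horizontal lines at the stage means (n = 4 each). XLOC_003026 lies between 191743 and 322600, above every mitochondrial locus, and XLOC_003024 and XLOC_003025 are the loci whose stages do not overlap.

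Loci of the nuclear copy held a large part of the FPKM total. XLOC_003026, identical to mt-Co2, had an FPKM of 257051, 273040, 247029 and 288867 in P1 and 191743, 322600, 240870 and 232737 in P7. It was the locus with the highest FPKM in 6 of the 8 hearts and the second in P1 replicate 2 and P7 replicate 4. The stages overlapped, P7 being the wider, and the log2 fold change was -0.13 with a standard error of 0.38 and a 95% interval from -0.97 to 0.70 (limma adjusted p = 0.85). It held 24.7%, 19.5%, 19.6% and 27.6% of the FPKM total in P1 and 17.0%, 25.6%, 22.3% and 10.9% in P7. On average this was 22.9% ± 4.0 at P1 against 19.0% ± 6.5 at P7 (SD, n = 4 each). The difference of -3.90 percentage points had p = 0.40 in a two-sided exact permutation test over 70 assignments, whose smallest p is 0.0286. The lowest share, in P7 replicate 4, stood beside the highest FPKM total, 2136940, to which another unannotated locus of chromosome 1, XLOC_001559, contributed 762014.

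All 12 members together made up 19.6% to 27.7% of the P1 totals and 10.9% to 25.7% of the P7 totals. Nearly all of it was XLOC_003026. The 8 mitochondrial loci held 0.0430% to 0.0985% in P1 and 0.0482% to 0.159% in P7, and the other 3 loci of the copy 0.00894% to 0.0141% and 0.00792% to 0.0200%. The short mt-Co2 copy was therefore 203 to 669 times the plus-strand mitochondrial locus in P1 and 142 to 260 times in P7, on the FPKM scale.

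What 1 fragment is worth in FPKM differed widely with the length of a locus. In each heart, FPKM values of unannotated loci of the same length as a locus of the copy were whole multiples of a step (within 0.002 of a whole number, or 2e-05 of larger ones), except at XLOC_003024, and the step is taken as the worth of 1 fragment. At 450 bases this was 0.154 to 0.270 FPKM over the hearts. At 102 bases it was 959 to 1730 FPKM, 3942 to 7975 times as much within a heart. At 102 and 401 bases a step was accepted only where all these values came out whole, so there the match is a condition of the search. At 450 bases a step was accepted only where most of the low values came out whole, so there it is partly one. The step at 102 bases rests on 2 loci in P1 replicate 1 and on 3 loci in each other heart, XLOC_003026 among them. It is the largest that gives whole numbers, so the counts are the smallest that the values allow. All 3 values above 0 at annotated loci of that length, not used to find the step, were whole multiples of it as well.

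In fragments, XLOC_003026 and XLOC_003025 were of the same order. These counts are not scaled for depth. XLOC_003026 had 257, 175, 163 and 167 fragments in P1 and 200, 324, 170 and 183 in P7. XLOC_003025 had 335, 199, 243 and 145 in P1 and 282, 340, 247 and 300 in P7. Within a heart, XLOC_003026 was 2311 to 6002 times XLOC_003025 in FPKM but 0.610 to 1.15 times in fragments. With its fragments valued at the step of the 450-base loci, XLOC_003026 came to 31.0 to 45.1 FPKM in P1 and 36.9 to 60.7 in P7, and its log2 difference was 0.22 rather than -0.13 (two-sided exact permutation test, p = 0.37). The direction of this locus thus depended on the length scaling, and neither value passed a test. With loci under 300 bases taken out of both the members and the total, the members held 0.0919% to 0.205% in P1 and 0.150% to 0.256% in P7.

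**Figure D3:**
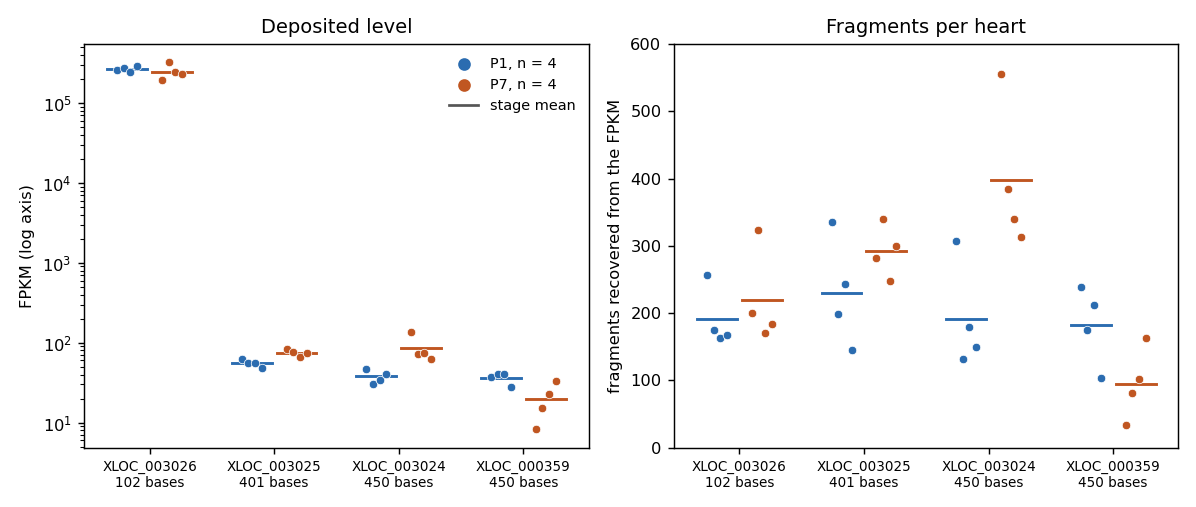
Deposited FPKM (left, log axis) and fragments recovered from it (right, linear axis) of the 4 loci of the copy, 1 point per heart, P1 in blue, P7 in orange, lines at stage means (n = 4 each). XLOC_003026 is 2311 to 6002 times XLOC_003025 in FPKM and 0.610 to 1.15 times in fragments.

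In deposited FPKM, the P7 hearts all lay above the P1 hearts at the 2 longer minus-strand loci of the copy. XLOC_003024, the mt-Co3 and mt-Nd3 interval, had an FPKM of 47.3, 30.1, 34.1 and 40.3 in P1 and 135, 72.0, 75.2 and 63.1 in P7. The mean rose from 37.9 ± 7.5 to 86.3 ± 32.9 (SD, n = 4 each), a ratio of 2.28, and the log2 fold change was 1.12 with a standard error of 0.25 (limma adjusted p = 0.032). P7 replicate 1 stood above the other P7 hearts, and without it the log2 fold change was 0.88 with an adjusted p of 0.081. The call was also lost without P1 replicate 2 (adjusted p = 0.11), P1 replicate 3 (0.079) or P7 replicate 3 (0.069), and with each heart scaled to its FPKM total (0.47). Over all alternatives the adjusted p ran from 0.0053 to 0.52 and the log2 fold change from 0.86 to 1.25. Its FPKM did not come to whole multiples of the step at 450 bases, and its fragment equivalents were 131 to 307 in P1 and 313 to 556 in P7.

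XLOC_003025, the mt-Atp6 and mt-Co3 stretch, had an FPKM of 62.3, 55.0, 55.4 and 48.1 in P1 and 83.0, 76.5, 66.4 and 73.4 in P7. The lowest P7 heart was above the highest P1 heart. The log2 fold change was 0.43 with a standard error of 0.18 and the limma adjusted p was 0.22, so it was not called. With hearts scaled by a median ratio over annotated loci it fell to 0.19 (limma adjusted p = 0.51). Scaled to the FPKM total with and without the members, it was 0.24 and 0.18 (limma adjusted p = 0.79 and 0.88). The separation of the stages was examined in deposited FPKM only. Of the tested unannotated loci, 2.20% had all P7 hearts above all P1 hearts, as had these 2 of the 4 loci of the copy. Of the tested annotated loci 17.3% had. Gm10222, the annotated pseudogene of the copy that matches mt-Nd4l and is no member, had an FPKM of 21.3, 38.2, 36.7 and 13.6 in P1 and 9.39, 31.6, 18.4 and 22.8 in P7. Its stages overlapped, and its log2 fold change was -0.40 with a standard error of 0.37 (limma adjusted p = 0.53). None of the other 6 pseudogene symbols of the copy is used in the files.

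The plus-strand locus XLOC_000359 shares the interval of XLOC_003024 but ran the other way. Its FPKM was 36.8, 40.1, 40.3 and 27.8 in P1 and 8.27, 15.2, 22.6 and 32.8 in P7. P7 replicate 1 was the lowest heart, and P7 replicate 4 lay within the range of P1. Means were 36.3 ± 5.9 at P1 and 19.7 ± 10.5 at P7 (SD, n = 4 each), and the log2 fold change was -0.99 with a standard error of 0.33 (limma adjusted p = 0.13). The adjusted p was 0.032 when only loci that reached 1 FPKM in all hearts were tested, 0.049 without P7 replicate 4 and up to 0.37 under the other alternatives. In fragments the locus had 239, 175, 212 and 103 in P1 and 34, 81, 102 and 163 in P7.

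Set against each other, the strands of this interval shifted. The plus strand held 43.7%, 57.2%, 54.2% and 40.8% of the FPKM of both loci in P1, and 5.77%, 17.4%, 23.1% and 34.2% in P7. The highest P7 heart was below the lowest P1 heart. The means were 49.0% ± 7.9 and 20.1% ± 11.8 (SD, n = 4 each). The 95% Wilson intervals, which cover counting error only, ran from 35.0% to 47.0% in the lowest P1 heart and from 30.1% to 38.6% in the highest P7 heart, so these neighbours overlapped in counting error. This ratio was chosen after the values were seen and has no test. Of 606 pairs of unannotated loci that share an interval in different blocks, the plus-strand share was below every P1 heart in all P7 hearts in 5 pairs (0.825%), this pair included, and above in 36 (5.94%). The median difference of the pairs was 2.43 percentage points, and it was -28.9 here. Summed over both strands, the interval had an FPKM of 68.1 to 84.1 in P1 and 87.1 to 143 in P7.

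**Figure D4:**
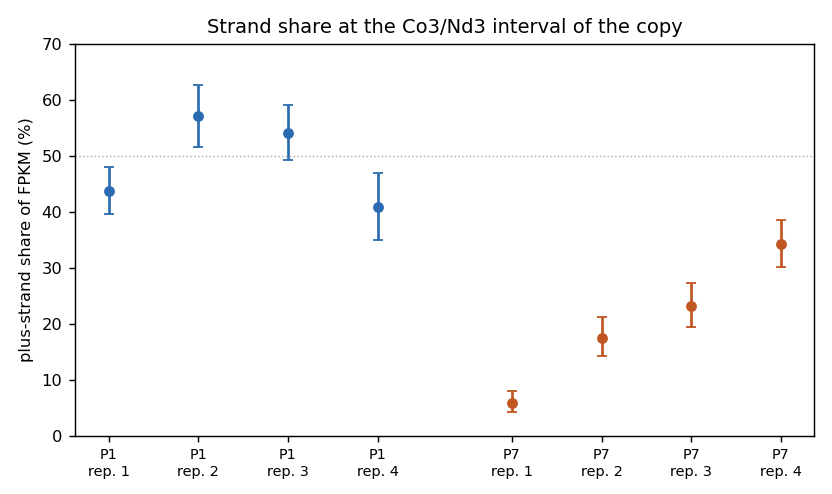
Plus-strand share (percent) of the FPKM of XLOC_000359 and XLOC_003024 in each heart, P1 in blue, P7 in orange, bars showing 95% Wilson intervals from fragment equivalents and the dotted line 50%. All P1 hearts are between 40.8% and 57.2% and all P7 hearts between 5.77% and 34.2%.

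The mt-Nd3 sequence shows how loci and genes were separated in these files. The mitochondrial locus of mt-Nd3 was listed at 0 in all hearts, while the interval of the copy that begins in mt-Co3 and ends in mt-Nd3 had an FPKM of 30.1 to 135 on the minus strand. The tRNA mt-Tr, next to mt-Nd3 and also within the span of the copy, was listed at 0 too, as was mt-Ts1. So were mt-Tq and mt-Tp, which lie outside that span. The tRNAs listed at 0 are 67 to 71 bases long and mt-Nd3 is 348, and the part of length in these zeros was not tested. In the other direction, mt-Co2, mt-Atp6 and mt-Co3 lie wholly within the span of the copy and belong to XLOC_075458, which was above 0 in every heart. The processing that placed reads at either site is not given in the sources used here, and the origin of these fragments, mitochondrial or nuclear, was not tested. The supplementary mapping summary of the study counts mitochondrial and ribosomal reads as classes apart from mapped reads, and what part of them entered the FPKM is not given in the sources used here.

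Nuclear genes that copy, transcribe and process mitochondrial DNA and RNA were examined beside the members. Of 63 such loci on 4 lists, limma called 1 higher in P7 and 0 lower. Among tested annotated loci 7.74% were called higher and 0.401% lower. At an unadjusted p under 0.05 there were 14 of the 63, beside 29.7% of tested annotated loci. Their median log2 fold change was 0.14, and that of all 17960 tested annotated loci 0.19. The called gene was Gtpbp3, an enzyme that modifies the wobble base of mitochondrial tRNAs. Its FPKM was 4.87, 3.45, 2.69 and 4.45 in P1 and 8.48, 7.97, 12.9 and 8.63 in P7, so that the stages did not overlap. Its log2 fold change was 1.11 with a standard error of 0.21 (limma adjusted p = 0.020), and under the alternatives the adjusted p ran from 0.0040 to 0.47. The call was lost without P1 replicate 2 (0.076), P1 replicate 3 (0.052), P7 replicate 1 (0.053) or P7 replicate 3 (0.063).

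The central genes of mitochondrial transcription and RNA stability were not called. Polrmt, the mitochondrial RNA polymerase, averaged 2.95 ± 1.07 FPKM at P1 and 4.34 ± 1.00 FPKM at P7 (SD, n = 4 each), with a log2 fold change of 0.46 ± 0.23 (SE, limma adjusted p = 0.31). Tfam, which packages mitochondrial DNA and starts transcription, had 39.8 ± 10.4 and 51.8 ± 17.4 FPKM, with a log2 fold change of 0.35 (adjusted p = 0.45). Tefm, the elongation factor, had a log2 fold change of -0.14 (limma adjusted p = 0.73). Twnk, the helicase of mitochondrial DNA replication, is listed under its older symbol Peo1 and had a log2 fold change of 0.04 (limma adjusted p = 0.93). Lrpprc and Slirp form a complex that stabilizes mitochondrial mRNAs. Lrpprc had 48.9 ± 12.4 FPKM in P1 and 38.0 ± 12.2 in P7, and Slirp 102 ± 19 and 102 ± 39, with log2 fold changes of -0.38 and -0.08 (adjusted p = 0.43 and 0.88). The stages overlapped in all of these genes, and in Twnk and Tefm, as in Slirp, the direction itself changed under some alternatives.

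By list, 16 genes of mitochondrial DNA maintenance had a median log2 fold change of 0.33, 11 of transcription -0.04, 20 of RNA processing and modification 0.18 and 17 of RNA stability and decay -0.08. All P7 hearts lay above all P1 hearts in 3 of the 63 loci (Dguok, Endog and Gtpbp3) and below in 4 (Mterf1b, Pnpt1, Fastkd1 and Fastkd2), genes named here after their values were seen. Among tested annotated loci these shares were 17.3% and 2.69%. Apart from Gtpbp3 these genes were not called.

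The nuclear subunits of the complexes to which the mitochondrial genes contribute were compared in the same way. None of 74 tested loci was called by limma, 19 had an unadjusted p under 0.05, and 68 had a log2 fold change above 0. Among tested annotated loci 7.74% were called higher and 0.401% lower, 29.7% had an unadjusted p under 0.05 and 67.6% a log2 fold change above 0. The median was 0.39 over 36 subunits of complex I, 0.26 over 9 of complex III, 0.42 over 13 of complex IV and 0.33 over 16 of complex V. Beside these, the log2 fold changes of the 3 tested mitochondrial loci were 0.48 for the plus-strand locus and -0.05 and -0.46 for the minus-strand loci, with the errors given above. The plus-strand locus merges 11 protein-coding genes with both rRNAs and 13 tRNAs, and the locus at -0.46 holds tRNA symbols only. These values are therefore not levels of mitochondrial subunit mRNAs alone. All P7 hearts lay above all P1 hearts in 10 of the 74 nuclear loci and below in 0, beside 17.3% and 2.69% of tested annotated loci.

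**Figure D5:**
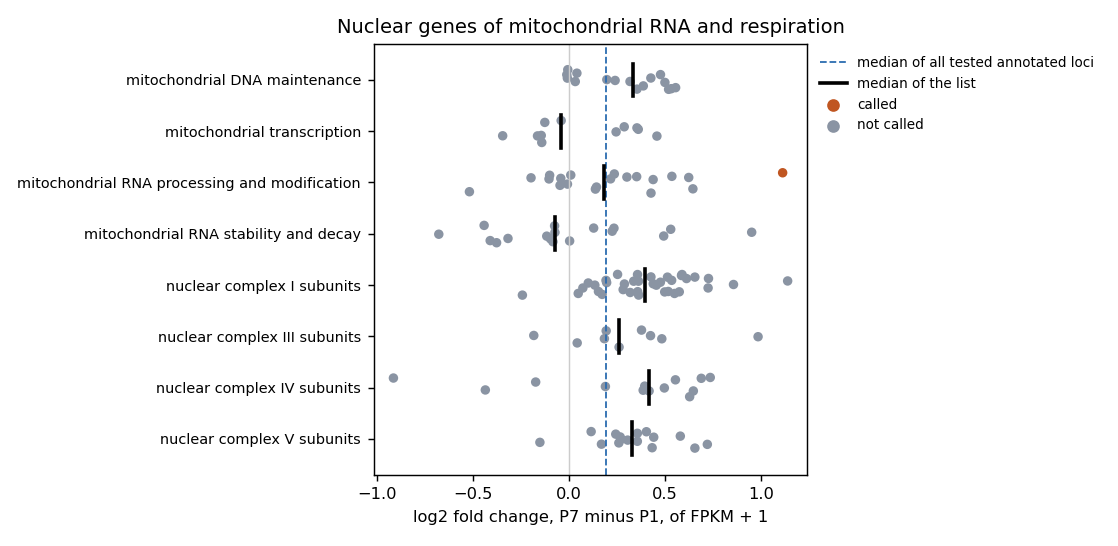
Log2 fold change, P7 minus P1, of FPKM + 1 for each tested gene of the 8 lists, 1 point per gene, with the list median (black bar) and the median of all tested annotated loci (dashed line, 0.19). Gtpbp3 is the called gene, in orange, and the others are grey.

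The tissue carried the RNAs of heart muscle. All 8 cardiomyocyte markers were detected in every heart, with a summed FPKM of 12260 to 20930 in P1 and 14360 to 22970 in P7, and 0 of 8 were called by limma (3 at an unadjusted p under 0.05). Beside 7.74% of annotated loci, 5 of 8 fibroblast markers were called higher in P7, with a summed FPKM of 859 to 1760 in P1 and 1851 to 2338 in P7. So were 2 of 6 endothelial, 1 of 6 smooth muscle and pericyte, 1 of 5 leukocyte and 1 of 5 brown fat markers. The uncalled brown fat marker Ucp1 was 0, 3.09, 0.0413 and 10.3 FPKM in P7 replicates 1 to 4, and at most 0.147 in P1. Adipoq (0, 1.20, 0.328 and 2.75) and Plin1 (0, 0.769, 0 and 1.41) were also highest in P7 replicates 2 and 4. Cidea, the called one, and Fabp4 did not follow this pattern. The cause was not tested. Of 6 erythroid markers 0 were called by limma (5 at an unadjusted p under 0.05), and 0 of the 3 nerve and Schwann, 1 lung and 1 thymus markers that were tested, with 1 at an unadjusted p under 0.05. Beside these unadjusted counts stand 29.7% of annotated loci. The thymus marker tested, Rag1, shares a merged locus with B230118H07Rik, so its value is not a level of Rag1 alone. The thymus markers Rag2 and Dntt stayed under 1 FPKM in every heart and were not tested. Erythroid markers summed to between 1614 and 3794 FPKM in P1, against 3705 to 4981 in P7, and no marker that found a locus was at 0 in every heart. The part of these differences in the levels of the members was not tested, and in a whole heart a change in the number of cells of a type cannot be told apart from a change in RNA per cell. Loci that reached 1 FPKM numbered 20269 to 28662 per heart. P1 replicate 3 had 14206 unannotated loci at that level, and the other P1 hearts 6316 to 7513.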

How the data were processed

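Total RNA of each heart was depleted of ribosomal RNA and made into a ScriptSeq v2 paired-end library. Alignment to GRCm38 (Ensembl annotation), summation over assembled loci and scaling to FPKM were done for the authors by a provider, and FPKM is the deposited unit. The aligner and assembler are not given in the sources used here. Each file ended in 1 blank row, which was left out.

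Loci that reached 1 FPKM in some heart were compared with limma 3.58.1 in R 4.3.3 (lmFit, eBayes with a trend) on log2(FPKM + 1), which understates changes of low loci, over all 8 hearts with Benjamini-Hochberg adjustment. Hearts are separate animals. In a simulation of this comparison with 200 loci changed 4-fold, 191 were called in the right direction and 11 unchanged loci of 43172 were called. The changed loci were annotated ones with a mean log2(FPKM + 1) above 4, and the noise was independent between hearts. Recovery of smaller changes, or of changes at lower loci, was not simulated. The share of XLOC_003026 was compared with an exact permutation test. Fragments were recovered as whole multiples of a step, a method that recovered 40 of 40 simulated steps. Each simulated step had more loci, with low counts, than the 2 or 3 loci at 102 bases. The simulation therefore did not cover the step used for XLOC_003026. Copy and mitochondrial sequences came from GENCODE M21 transcripts, and the 37 mitochondrial symbols all matched. Listed symbols were matched directly or through RefSeq synonyms, the locus with the highest mean FPKM being used, and 1 of 64 RNA handling symbols (Fastkd4) and 1 of 75 subunit symbols (Cox4i1) found no locus of their own. Exact tests and tables used scipy 1.17.1, numpy 2.4.6 and pandas 2.3.3 under Python 3.11.15.

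The members and lists were chosen with earlier results of these data known. Every member was to be described, list genes were to be named where called (at most 4 a list, by size of change), and Polrmt, Tfam, Tefm, Lrpprc, Slirp and Twnk in any case. Alternatives were other pseudocounts, filters, scalings, variance moderation, a replicate block and each heart left out. The fragment scale, the total without XLOC_001559 and the strand share were added after the values were seen.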

Additional observations from a re-analysis of the deposited data

Results flagged for a closer look

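In groups of 4 hearts, a heart was marked where its gap to the nearest other exceeded Dixon's 95% limit, which chance passes in about 1 of 20 groups. The measures examined, at each stage, were FPKM of the tested members, Gm10222, XLOC_001559 and the named nuclear genes, the fragments and the shares, ratios, ranks, totals and counts of loci per heart given above. Of 74 groups, many of which share the same hearts and values, 9 were marked. XLOC_003024 was 135 FPKM in P7 replicate 1 and 63.1 to 75.2 in the other P7 hearts. The minus-strand tRNA locus XLOC_075462 held 3.14 FPKM per 100 of XLOC_075458 in P1 replicate 4 and 1.15 to 1.31 in the other P1 hearts. The FPKM total was 2136940 in P7 replicate 4 and 1077910 to 1258400 in the other P7 hearts. In that heart XLOC_001559 was 762014 FPKM, and 13815 to 95298 in the other P7 hearts. XLOC_075458 ranked 169 among annotated loci in P1 replicate 4 and 64 to 68 in the other P1 hearts. P1 replicate 3 had 28662 loci with at least 1 FPKM, 14206 of them unannotated, and the other P1 hearts 21382 to 22292 and 6316 to 7513. XLOC_003026 had 257 fragments in P1 replicate 1 and 163 to 175 in the other P1 hearts. Gtpbp3 was 12.9 FPKM in P7 replicate 3 and 7.97 to 8.63 in the other P7 hearts.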

How the results depend on the processing

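The number of members called, 1, became 0 with no filter and with hearts scaled to the FPKM total, with or without the members, and 2 with only loci at an FPKM of at least 1 in every heart. Leaving out a heart gave 0 to 2. The number of RNA handling genes called, 1, became 0 with no filter and under both scalings to the total, 4 with the filter on every heart and 6 with median-ratio scaling, and 0 to 3 with a heart left out. XLOC_003024 stayed higher in P7 under every alternative, but was not called at a log2 fold change of 1.12 with no filter (limma adjusted p = 0.12), at 0.93 scaled to the total (limma adjusted p = 0.47) or at 0.86 scaled to the total without the members (limma adjusted p = 0.52), and ran from 0.88 to 1.25 with a heart left out. XLOC_000359 was called past the threshold at -0.99 (limma adjusted p = 0.032) with the filter on every heart, and ran from -1.28 to -0.65 with a heart left out. XLOC_003026 turned to 0.22 in fragments. The cause of each was not tested, apart from the number of loci tested that a filter sets.

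The mean share held by the members moved to 32.4% in P1 and 28.1% in P7 over annotated loci and members, and to 0.162% and 0.199% without loci under 300 bases, which leaves out XLOC_003026 itself. With a heart left out the P1 mean ran from 21.4% to 24.1% and the P7 mean from 16.8% to 21.8%. Twnk, at 0.04, turned to -0.11 with median-ratio scaling and -0.068 and -0.12 with the scalings to the total. With a heart left out, XLOC_075464 ran from -0.40 to 0.13, Tefm from -0.28 to 0.029, Slirp from -0.28 to 0.16 and Twnk from -0.062 to 0.24. Over annotated loci the scalings moved the median log2 fold change by -0.20 (median ratio), -0.16 and -0.21 (totals).

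Loci called over the whole table numbered 1650 (1490 higher), 260 with no filter, 84 and 143 with the scalings to the total, 2711 with the filter on every heart and 2517 (1538 higher) with median-ratio scaling. With a heart left out they numbered 199 (P1 replicate 2) to 3379 (P1 replicate 4).

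Replicate numbers did not pair the hearts. Deviations of same-numbered hearts correlated at 0.058, 0.22, -0.28 and -0.12, and 1 of 8 hearts correlated best with its own number. With the replicate block 1 member was called, and 1283 loci in all.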
